A study of Mus musculus with 9 samples.

Results

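The chemokine ligand genes were taken as every protein-coding gene of the mouse annotation (GENCODE vM1 on NCBIM37, the build also called mm9) whose symbol starts with Ccl, Cxcl, Cx3cl or Xcl followed by a digit. They were 38 of the 35934 genes with a value. Another 3 genes matched the name but were not protein-coding and were left out. Cxcl11 and Ccl28 are not among the 38, so the levels of these ligands are not described. Chemokines are small proteins, mostly secreted, that bind receptors of the G protein-coupled type and direct the movement of leukocytes along their gradients. They are named after the spacing of conserved cysteines, and many lie in clusters of copied genes. In the uterus they are known for drawing macrophages, natural killer (NK) cells and other leukocytes into the lining under the control of ovarian hormones, and silencing of some of them in the decidua is known in the mouse.

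RNA of the uterus was sequenced in 9 libraries, 3 per group, to ask how medium in which human embryos had grown acts on the lining. All mice were immature C57BL/6 females, 25 days old in the sample labels and 21 days in the series text, and all had been primed with progesterone (1 mg, given once) and estradiol (10 mg/kg per day) over 3 days. Their uterine horns were injected with 50 µl of medium, which was embryo culture medium that had held no embryo (control), pooled medium of 9 human embryos labelled developmentally competent (competent), or pooled medium of 18 human embryos labelled as arresting (arrested). Each conditioned medium was a pool, so the groups say nothing of single embryos. Whether libraries of a group are from separate mice is not in the labels, so p-values measure only the spread between these libraries, which may be technical.

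Levels are FPKM (fragments per kilobase of transcript, scaled to the mapped fragments of the library), summed over the annotated transcripts of a gene. Depth in reads is unknown, and the deposited coverage multiplied by transcript length amounted to 1077 to 1972 Mb per library. All 6 epithelium, 5 stromal fibroblast and 5 smooth muscle markers passed the filter described below, so the defining markers of the labelled tissue were present. Arrested library 3 stood apart, with a score of 90.7 on principal component 1 (which held 16.6% of the variance) and scores of -25.1 to 4.87 in the other 8. In it the summed FPKM of 4 ovary and oviduct markers was 40.6, nearly all from the oviduct gene Ovgp1, against at most 1.67 elsewhere. In arrested library 2 the summed FPKM of 6 adipocyte markers was 1323, against at most 164 elsewhere. The part of other tissue in the results was not tested, so most arrested differences of the ligand genes described at length are also given without each of these libraries. Differences of marker, receptor and other genes, and those with protein-coding transcripts alone, are given with all libraries only. In whole tissue, fewer cells of a type and less RNA per cell cannot be told apart.

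Of the 38 genes, 21 reached 1 FPKM as their mean of 9 libraries, the filter set for testing, and were tested, 14 had a lower mean, and 3 were listed at 0 in every library. Those at 0 were Ccl26, an eotaxin, Ccl27a, a skin-homing ligand, and a second gene record of Ccl25 that overlaps the first on chromosome 8. Of the 14 with a lower mean, 8 reached 1 FPKM in at least 1 library (Cxcl15, Ccl17, Cxcl9, Cxcl5, Ccl22, Ccl1, Ccl27b and Ccl20), and Ccl24, Cxcl13, Cxcl2, Cxcl1, Ccl19 and Cxcl3 stayed below 1 FPKM in all 9. Among the 21 tested genes, 20 were above 0 in every library and 14 had a mean of at least 10 FPKM.

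The order of the levels was led by Cxcl17, an epithelial chemokine of mucosal surfaces, with a mean of 350 FPKM and a range from 234 to 413. Cxcl17 alone made up 25.4% of the summed chemokine ligand FPKM in arrested library 2 and 51.8% in arrested library 3, the lowest and the highest share. Next came Ccl8 (mean 90.8 FPKM), Cxcl12 (85.4) and Ccl21a (76.1), then Ccl21c and Ccl21b (both 41.3), Ccl11 (28.1), Cxcl16 (24.8), Cxcl14 (23.7), Ccl5 (21.5), Cxcl10 (19.3), Cx3cl1 (17.8), Ccl6 (17.1) and Xcl1 (13.3). The 7 lowest were Ccl12 at 8.92, Ccl9 at 8.51, Ccl25 at 2.60, Ccl7 at 2.31, Ccl2 at 2.30, Ccl4 at 1.71 and Ccl3 at 1.2 FPKM. Of the 20 pairs of neighbours in this order, 19 overlapped in their ranges over the 9 libraries. The exception was Cxcl17 and Ccl8.

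**Figure D1:**
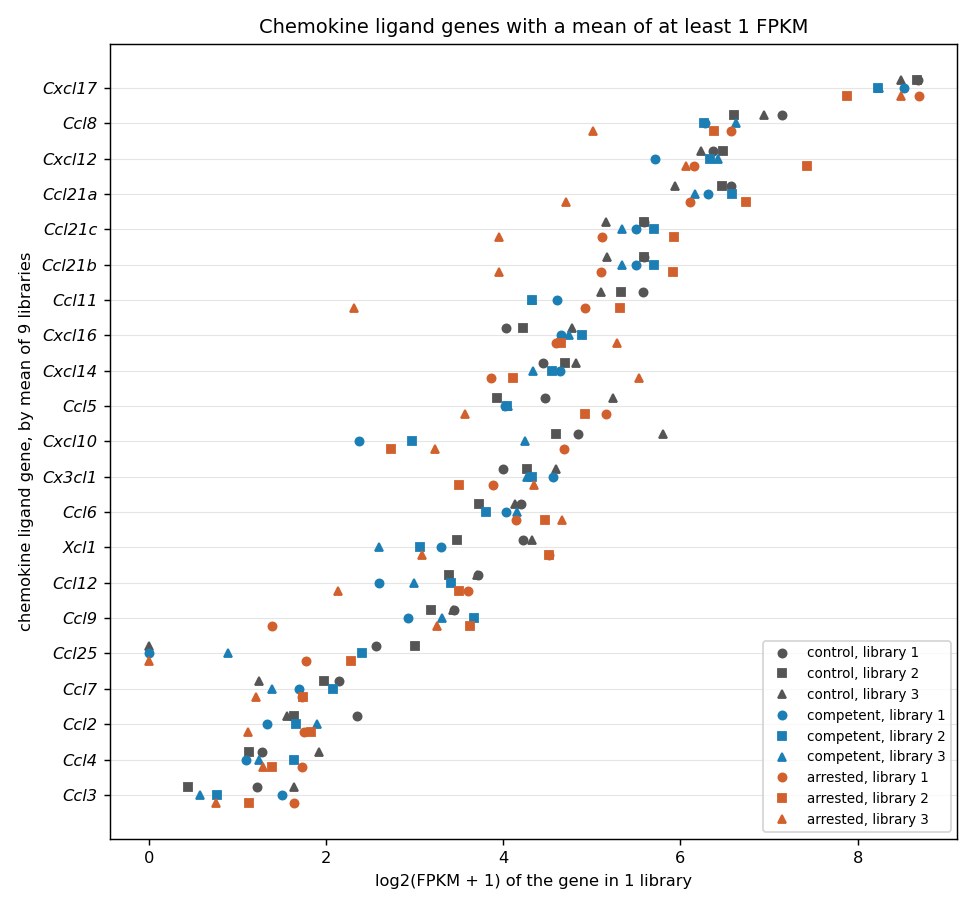
Level of each tested chemokine ligand gene, as log2(FPKM + 1) on the horizontal axis, in each of the 9 libraries (colour gives the group, symbol the library). Cxcl17 lies above all others, most neighbours overlap, and arrested library 3 (orange triangles) lies far to the left for Ccl8, Ccl11 and the Ccl21 genes.

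No chemokine ligand gene passed the threshold in any comparison. With limma across all 13333 genes tested, 0 of the 21 had an adjusted p under 0.05 between arrested and competent, where 0.135% of all genes did, between competent and control (0.045%), between arrested and control (0.0525%), or in the F test over the 3 groups (0.0975%). At an unadjusted limma p under 0.05 the counts were 1 of 21 for arrested against competent (10.9% of all genes), 2 of 21 for competent against control (5.18%), 2 of 21 for arrested against control (5.27%) and 1 of 21 in the F test (7.67%). Data for arrested against control were simulated over 13333 genes, and only genes of higher level were given a change. The test found 36% of genes changed by log2 1 and 83% of those changed by log2 2. On average it also called 12 unchanged genes. These rates do not cover the low ligand genes Ccl25, Ccl7, Ccl2, Ccl4 and Ccl3. The changed genes were drawn without regard to their spread, and no simulated library stood apart as arrested library 3 does. The spread within groups was wider than that of 28.4% of tested genes for Ccl6, 85% for Cxcl10 and 86.5% for Ccl11. The rates need not hold for ligand genes of wide spread. The genes described at length are those with an unadjusted p under 0.05, with the smallest p filling up to 3 per comparison, and those whose groups did not overlap.

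For competent against control, 16 of 21 were below 0, where 51.2% of all genes were, and the median log2 difference was -0.15 against -0.01 over all genes. Against the same control libraries, 14 of 21 arrested differences were below 0 (52.7% of all genes) with a median of -0.28 against -0.02. Without arrested library 3 the latter count was 10 of 21 (46.9% of all genes) and the median 0.07. Without arrested library 2 it was 16 of 21 (55.9% of all genes) and the median -0.32, and 5 of 21 were lower in arrested without overlap (14.4% of all genes). These 5 include Ccl21b and Ccl21c, and all such counts take the near-identical Ccl21 copies as separate genes. Between arrested and competent, 10 of 21 were below 0 (50.9% of all genes), and the medians were 0.02 and -0.01. The summed FPKM of the 38 genes was 1045, 968 and 963 in control libraries 1 to 3, 821, 821 and 799 in competent, and 918, 920 and 694 in arrested. The competent and the arrested sums lay below all control sums. Without Cxcl17 the sums were 636, 561 and 604 in control, 454, 522 and 497 in competent and 506, 686 and 335 in arrested, so that arrested library 2 lay above all control libraries while the competent sums stayed below them.

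**Figure D2:**
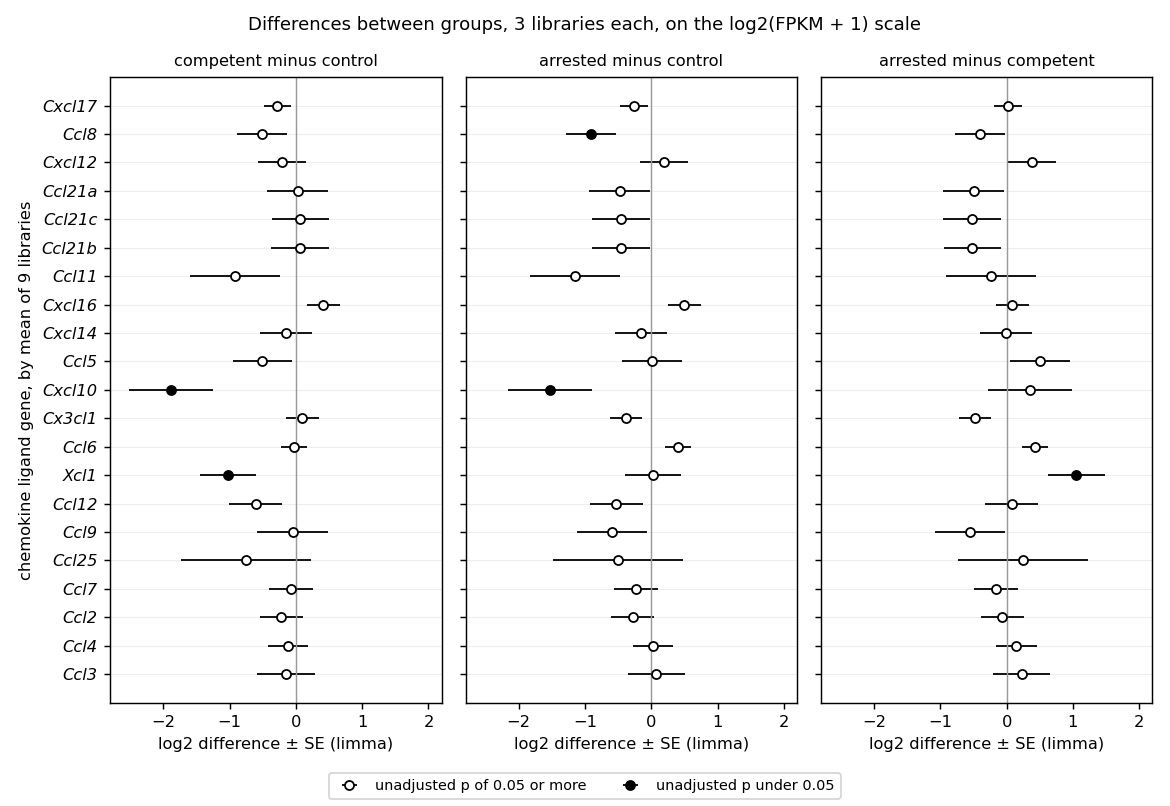
Log2 differences between groups with their standard errors (limma on log2(FPKM + 1), 3 libraries per group) for the 21 tested genes, one panel per comparison, with filled points at an unadjusted p under 0.05. Cxcl10 and Xcl1 are filled in the left panel, Ccl8 and Cxcl10 in the middle one and Xcl1 in the right one, and none passed the adjusted threshold.

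For 4 of the 21 genes there was no overlap between a pair of groups. These were 3 of 21 between competent and control (14.3%, and 14.9% of all genes) and 1 between arrested and control (4.76%, and 8.85% of all genes). Between arrested and competent it was 0 (16.5% of all genes), so such genes were no more frequent among the ligands than among all genes. The sequences before the transcription starts of the 4 genes are shown to place them beside known regulatory motifs. For each, the 250 bases before the start of the transcript with the highest mean FPKM were read from NCBIM37, and capitals mark motif matches. The first, Cxcl10, is an interferon-induced attractant of T cells and NK cells that acts on the receptor Cxcr3; its gene is at chr5:92775664-92777915 on the minus strand, and the stretch, before the start of its retained-intron transcript, is chr5:92777909-92778158.
Cxcl10: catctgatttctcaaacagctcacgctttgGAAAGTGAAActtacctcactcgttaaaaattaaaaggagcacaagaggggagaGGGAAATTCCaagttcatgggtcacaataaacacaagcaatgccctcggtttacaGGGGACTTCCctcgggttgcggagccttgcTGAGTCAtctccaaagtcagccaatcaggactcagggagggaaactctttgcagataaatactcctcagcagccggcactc
Xcl1, or lymphotactin, is made by NK cells and T cells and acts on Xcr1 of cross-presenting dendritic cells; the gene is at chr1:166861775-166865658 on the minus strand, and the stretch is chr1:166865659-166865908.
Xcl1: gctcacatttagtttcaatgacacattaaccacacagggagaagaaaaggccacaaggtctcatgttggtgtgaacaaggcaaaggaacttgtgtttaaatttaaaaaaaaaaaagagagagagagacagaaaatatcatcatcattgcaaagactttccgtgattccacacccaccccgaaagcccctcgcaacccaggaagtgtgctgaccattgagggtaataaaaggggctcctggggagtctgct
Ccl8 attracts monocytes and other leukocytes; the gene is at chr11:81928687-81930301 on the plus strand, and the stretch is chr11:81928437-81928686.
Ccl8: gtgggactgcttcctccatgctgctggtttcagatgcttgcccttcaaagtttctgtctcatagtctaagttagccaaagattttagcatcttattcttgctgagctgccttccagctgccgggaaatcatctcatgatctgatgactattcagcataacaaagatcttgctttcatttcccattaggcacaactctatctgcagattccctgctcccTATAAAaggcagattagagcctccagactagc
Ccl11, or eotaxin, attracts eosinophils through Ccr3; the gene is at chr11:81871325-81876457 on the plus strand, and the stretch is chr11:81871075-81871324.
Ccl11: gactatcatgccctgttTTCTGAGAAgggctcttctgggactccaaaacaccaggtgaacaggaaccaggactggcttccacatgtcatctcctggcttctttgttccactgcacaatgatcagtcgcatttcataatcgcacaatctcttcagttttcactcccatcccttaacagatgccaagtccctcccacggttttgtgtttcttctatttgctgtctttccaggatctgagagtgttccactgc

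A set of 6 letter patterns was searched on both strands of these stretches and of the same stretch of 22380 protein-coding genes. TATAAA, the box that places the start of many promoters, was found in 12.4% of all genes and in 6 of the 21 tested chemokine ligand genes, among them Ccl8, where it lies 32 to 27 bases before the start. In Ccl6, another of the 6, it lies on the opposite strand, 225 to 220 bases before the start. Among the 21, the transcripts used for Ccl6, Ccl9 and Cxcl16, as for Cxcl10, were not labelled protein-coding. Their starts may differ from those of the coding transcripts. The kappaB pattern of NF-kappaB factors (GGG and TTCC with any 3 bases between) was found in 4.8% of all genes and in Ccl5, Ccl2 and Cxcl10. The Cxcl10 stretch holds it at 166 to 157 and at 111 to 102 bases before the start. The core of the interferon-stimulated response element (GAAA repeated after any 2 bases) was found in 3.53% of all genes and in Cxcl10 (220 to 211 bases before the start) and Cxcl14. The AP-1 pattern (TGA and TCA with any base between) was found in 6.01% of all genes and in Cxcl10 (81 to 75 bases before the start), Ccl9 and Ccl7. TTCNNNGAA, the GAS pattern of STAT factors, was found in 6.74% of all genes and in Ccl11 (233 to 225 bases before the start), Cxcl14 and Ccl2. The estrogen response element (GGTCA followed, after any 3 bases, by its reverse complement) was found in 0.0581% of all genes and in none of the 21. Over all 38 chemokine ligand genes, with those not tested, TATAAA was found in 12 and the kappaB pattern in 10. The interferon element was found in 3 of the 38, AP-1 in 4, GAS in 5 and the estrogen element in 0. The Xcl1 stretch held none of the 6. The matches within the printed stretches do not overlap, and a match describes letters only.

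Among the interferon-induced ligands, Cxcl10 was tested and Cxcl9, which shares the receptor Cxcr3, had a mean of 0.635 FPKM. Cxcl10 stood at 27.7, 23.2 and 55.1 FPKM in control libraries 1 to 3, at 4.18, 6.84 and 18.0 in competent and at 24.8, 5.67 and 8.40 in arrested. All competent libraries were below all control libraries, and arrested library 1 lay within the control range. The log2 difference from control was -1.89 ± 0.63 (SE) for competent, with a limma p of 0.0176 and an adjusted p of 0.880. For arrested it was -1.53 ± 0.63, with a limma p of 0.0421 and an adjusted p of 0.904. That difference was -1.12 ± 0.68 (limma p 0.146, adjusted p 0.689) without arrested library 2 and -1.37 ± 0.76 (p 0.116, adjusted p 0.816) without arrested library 3. Groups did not overlap for 3 of 21 genes between competent and control, each lower in competent (8.13% of all genes in that direction).

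The Cxcl10 value was the sum of a pair of transcripts that did not move alike. The protein-coding transcript of 1094 bases stood at 9.68, 8.57 and 18.3 FPKM in control, 4.18, 6.84 and 6.91 in competent and 7.21, 5.67 and 8.40 in arrested. The retained-intron transcript of 344 bases stood at 18.0, 14.6 and 36.8 FPKM in control, was listed at 0 in competent libraries 1 and 2 and at 11.1 in the third, and was at 17.6 in arrested library 1 and listed at 0 in the other two. A short transcript listed at 0 beside reads of the same gene can be a failed estimate. With protein-coding transcripts alone, the log2 difference from control was -0.87 ± 0.31 for competent (limma p 0.0219, adjusted p 0.909) and -0.65 ± 0.31 for arrested (p 0.0694, adjusted p 0.919). Every competent and arrested library was below every control library on that transcript, but by little in arrested. Arrested library 3 was at 8.40 FPKM (deposited interval 6.83 to 9.97) and control library 2 at 8.57 (6.89 to 10.2). The share of all genes without overlap on coding transcripts was not computed. The Cxcl10 receptor gene Cxcr3 was below the filter, at 0.57 to 1.30 FPKM in control, 0.292 to 0.54 in competent and 0.508 to 1.05 in arrested.

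**Figure D3:**
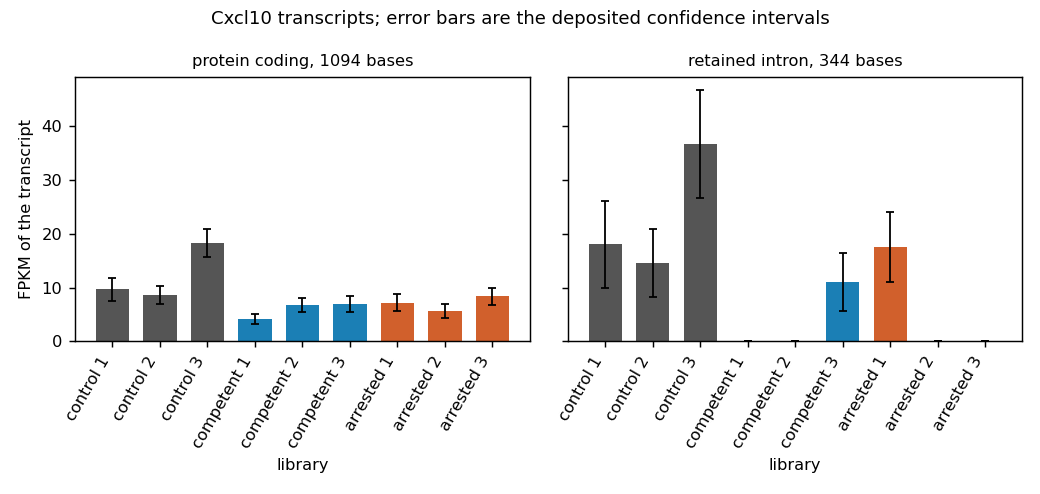
FPKM of the protein-coding (left) and the retained-intron (right) transcript of Cxcl10 in each library, with the deposited confidence intervals as error bars. The right panel shows 4 libraries at 0 and the highest value, 36.8, in control library 3.

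Xcl1 stood at 17.8, 10.1 and 19.1 FPKM in control libraries 1 to 3, at 8.84, 7.36 and 5.08 in competent and at 21.8, 21.9 and 7.48 in arrested. The 3 competent libraries were below all control libraries, and arrested library 3 lay within the competent range while the other arrested libraries were above every library of the other groups. The log2 difference of arrested from competent was 1.05 ± 0.43 (limma p 0.0396, adjusted p 0.433), and that of competent from control was -1.02 ± 0.43 (p 0.0436, adjusted p 0.944). Arrested differed from control by 0.03 ± 0.43 (adjusted p 1.00). Without arrested library 3 the difference of arrested from competent was 1.53 ± 0.31 (limma p 0.00204, adjusted p 0.180). Without arrested library 2 it was 0.81 ± 0.47 (p 0.133, adjusted p 0.543), and without arrested library 1 it was 0.81 ± 0.48 (p 0.134, adjusted p 0.580).

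NK cells are a source of Xcl1. The summed FPKM of 6 NK cell markers was 22.1, 10.1 and 31.7 in control, 11.8, 11.4 and 8.86 in competent and 26.1, 32.3 and 13.3 in arrested. The competent sums were below all arrested sums and overlapped with control, whose library 2 was low for both the sum and Xcl1. Of the 5 that were tested, 0 had an adjusted limma p under 0.05. All 5 were higher in arrested than in competent (48.7% of all genes). At an unadjusted limma p under 0.05, 3 of them were higher in arrested (5.31% of all genes). These were the receptor genes Ncr1 (1.14 ± 0.44, adjusted p 0.412) and Klrb1c (0.76 ± 0.25, adjusted p 0.379) and the granzyme gene Gzmb (0.96 ± 0.35, adjusted p 0.403). Gzmb was lower in competent than in control by a log2 difference of -1.35 ± 0.35, with a limma p of 0.00466 and an adjusted p of 0.866. Of 7 T cell markers only Cd3g was tested, at 1.61 to 5.90 FPKM in control, 3.67 to 11.7 in competent and 2.37 to 11.1 in arrested, while Cd3e did not exceed 0.224. Cd3d, below the filter, was at 0.74, 0.66 and 0.72 FPKM in control and 0.41, 0.45 and 0.25 in competent. In arrested Cd3d was at 1.34, 1.57 and 0.46 FPKM, so its competent libraries were the lowest, as for Xcl1. The 7 T cell markers summed to 3.03 to 8.63 FPKM in control, 5.34 to 13.4 in competent and 3.64 to 13.5 in arrested. The part of either cell type in the Xcl1 values was not tested. The Xcl1 receptor gene Xcr1 was at 0.131 to 0.52 FPKM over the 9 libraries.

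**Figure D4:**
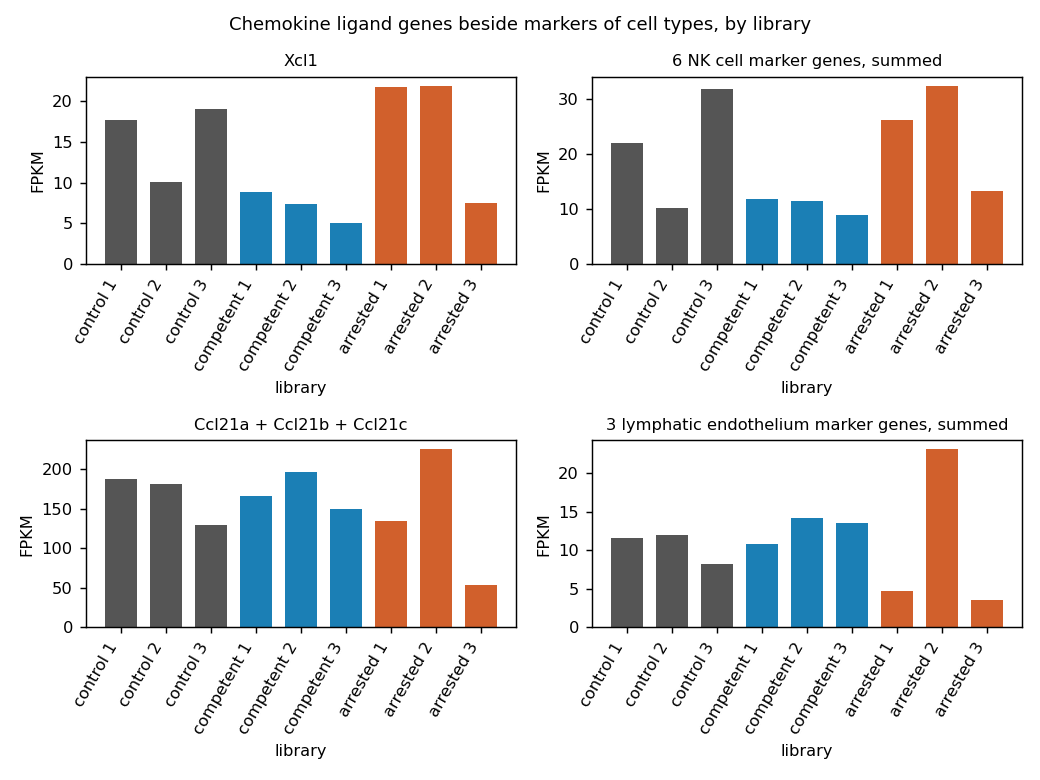
FPKM by library of Xcl1, of 6 NK cell markers summed, of the 3 Ccl21 genes summed and of 3 lymphatic endothelium markers summed. The competent bars of Xcl1 and of the NK cell markers are low, and arrested libraries 2 and 3 hold the highest and the lowest bar for Ccl21 and for the lymphatic markers.

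The 4 monocyte attractants Ccl2, Ccl7, Ccl8 and Ccl12 were all tested, and they share a 270 kb cluster on chromosome 11 with Ccl11 and with Ccl1, whose mean was 0.482 FPKM. Ccl8 stood at 140 FPKM in control library 1, 96.4 in control library 2 and 122 in control library 3. It was at 76.6, 75.9 and 97.7 FPKM in competent and at 94.1, 82.6 and 31.3 in arrested. All arrested libraries were below all control libraries, the only one of 21 genes without overlap in that comparison (5.36% of all genes in that direction). The log2 difference was -0.91 ± 0.38 (limma p 0.0447, adjusted p 0.904), and without arrested library 3 it was -0.42 ± 0.19 (p 0.0661, adjusted p 0.807). Without arrested library 2 it was -1.10 ± 0.43 (limma p 0.0376, adjusted p 0.6005). Competent differed from control by -0.51 ± 0.38 (adjusted p 0.954), with competent library 3 inside the control range.

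Ccl12 had means of 11.2 FPKM in control, 7.22 in competent and 8.30 in arrested, with log2 differences from control of -0.60 ± 0.40 and -0.53 ± 0.40 (limma adjusted p 0.954 and 0.906). The arrested difference was -0.05 ± 0.26 (limma adjusted p 0.992) without arrested library 3 and -0.74 ± 0.45 (adjusted p 0.686) without arrested library 2. Ccl2 and Ccl7, the classical ligands of Ccr2, were low at 1.18 to 4.12 and 1.31 to 3.43 FPKM. Their groups overlapped in every comparison. Control library 1 was the highest of the 9 for Ccl2, Ccl7, Ccl8, Ccl11 and Ccl12, all 5 tested genes of the cluster, where it was the highest for 7.76% of all genes. Arrested library 3 was the lowest of the 9 for the same 5 (19% of all genes). The receptor gene Ccr2 was at 1.53 to 7.0 FPKM (limma F test adjusted p 0.878). Of 11 monocyte and macrophage markers tested, 10 were lower in competent than in control (51.2% of all genes). In arrested, 10 of the 11 were lower than in control (52.7% of all genes). Of these markers, 0 had an unadjusted limma p under 0.05 in either comparison (5.18% and 5.27% of all genes). Their summed FPKM was 317 to 619 in control, 321 to 388 in competent and 342 to 455 in arrested, and their part in these values was not tested.

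Ccl11 was the only eosinophil attractant tested, at 46.6, 39.3 and 33.3 FPKM in control libraries 1 to 3, 23.4, 19.0 and 19.0 in competent and 29.4, 38.9 and 3.99 in arrested. Competent libraries were below all control libraries, whereas the arrested ones held both a value inside the control range and the lowest of all 9. The log2 difference of competent from control was -0.92 ± 0.68 (limma p 0.215, adjusted p 0.954). The spread is pooled over all groups, and without arrested library 3 the same difference was -0.92 ± 0.18 (p 0.00141, adjusted p 0.511). Arrested differed from control by -1.15 ± 0.68 (adjusted p 0.904) with all libraries and by -0.21 ± 0.20 (adjusted p 0.873) without arrested library 3. Without arrested library 2 it was -1.71 ± 0.67 (limma p 0.0383, adjusted p 0.6005). Against competent the sign turned, from -0.23 ± 0.68 (adjusted p 0.946) to 0.70 ± 0.20 (p 0.00971, adjusted p 0.232) without arrested library 3, and it was -0.80 ± 0.67 (limma adjusted p 0.687) without arrested library 2. Eosinophil markers were near 0, with the granule gene Epx at 0.0294 FPKM in 1 library and 0 in the other 8, and the receptor gene Ccr3 at no more than 0.10. Ear2, the only tested eosinophil marker, was at 5.25, 3.43 and 5.19 FPKM in control, 2.10, 4.72 and 1.62 in competent and 5.91, 6.19 and 1.02 in arrested (limma F test adjusted p 0.894), and its part in the Ccl11 values was not tested.

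A second cluster of 139 kb on chromosome 11 holds the macrophage inflammatory ligands, Ccl5, Ccl9, Ccl6, Ccl3 and Ccl4, all 5 of them tested. Ccl6 stood at 17.5, 12.3 and 16.5 FPKM in control, 15.3, 13.0 and 16.8 in competent and 16.7, 21.2 and 24.3 in arrested. Arrested libraries 2 and 3 were the highest of the 9, and arrested library 1 lay within both other groups. The log2 difference of arrested was 0.43 ± 0.20 from competent (limma p 0.0614, adjusted p 0.483) and 0.41 ± 0.20 from control (p 0.0736, adjusted p 0.904). Without arrested library 3 these were 0.31 ± 0.21 and 0.29 ± 0.21 (limma p 0.175 and 0.205, adjusted p 0.575 and 0.844), and without arrested library 2 they were 0.41 ± 0.23 and 0.38 ± 0.23 (p 0.124 and 0.143, adjusted p 0.527 and 0.686). Only 34.1% of Ccl6 FPKM came from its protein-coding transcript, and 21.9% of that of Ccl9. Ccl5, a T cell and NK cell product, was at 15.3 to 15.7 FPKM in competent, 14.2 to 36.7 in control and 10.9 to 34.9 in arrested. Ccl3 and Ccl4, attractants of monocytes and T cells, had means of 1.2 and 1.71 FPKM and overlapped in every comparison, as did Ccl9 at 8.51.

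The 3 Ccl21 genes guide cells that carry Ccr7 into lymphatic vessels, and they are near-identical copies on chromosome 4. Their coding sequences of 402 bases differ at 2 positions between Ccl21a and Ccl21b and between Ccl21a and Ccl21c (T84A and C194T, counted from 1 at the first base of the coding sequence, with the Ccl21a base first) and at 0 between Ccl21b and Ccl21c. Bases 174 to 214 are shown around the second of these positions, in capitals, to show how alike the copies are.
Ccl21a: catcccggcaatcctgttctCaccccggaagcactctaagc
Ccl21b: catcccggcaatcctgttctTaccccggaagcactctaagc
Ccl21c: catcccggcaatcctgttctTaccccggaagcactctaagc

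Ccl21b and Ccl21c stood in a ratio of 0.997 to 1.01, and Ccl21a made up 46.4 to 50.4% of the sum. How reads shared by the copies were assigned is not stated, so their separate levels are uncertain. Summed over the copies, the level was 188, 182 and 130 FPKM in control libraries 1 to 3, 167, 197 and 150 in competent and 135, 225 and 54.1 in arrested. Arrested libraries 2 and 3 were the highest and the lowest of the 9, and the group means of 167 ± 31.7, 171 ± 24.1 and 138 ± 85.7 (SD, n = 3) differed by less than the spread within arrested. For Ccl21a the log2 difference of arrested from competent was -0.50 ± 0.46 (limma adjusted p 0.750), 0.07 ± 0.26 (adjusted p 0.937) without arrested library 3 and -0.94 ± 0.41 (adjusted p 0.415) without arrested library 2. Lymphatic endothelium markers (Lyve1, Flt4 and Prox1) summed to 8.21 to 12 FPKM in control, 10.8 to 14.2 in competent, and 4.78, 23.1 and 3.50 in arrested. Arrested library 2, with its adipocyte markers, was also the highest of the 9 for Cxcl12, and their part was not tested. Ccr7 was at no more than 0.206 FPKM. The other lymphoid ligands, Ccl19 (mean 0.0939 FPKM), which shares Ccr7, and Cxcl13, which attracts B cells, were below 1 FPKM in every library.

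Cxcl12, the stromal ligand of Cxcr4 that retains leukocytes and progenitors in tissues, was at 81.5, 88.5 and 74.3 FPKM in control, 51.7, 79.5 and 85.2 in competent and 70.1, 172 and 66.0 in arrested. One library, arrested library 2, lay far above the rest. The log2 difference of arrested from competent was 0.39 ± 0.36 (limma adjusted p 0.751), -0.05 ± 0.22 (adjusted p 0.959) without arrested library 2 and 0.63 ± 0.38 (adjusted p 0.541) without arrested library 3. Cxcr4 was at 0.745 to 8.46 FPKM, with the highest value in arrested library 3. The scavenging receptor gene Cxcr7, which also binds Cxcl12, was at 11.2, 10.8 and 11 FPKM in control, 9.79, 5.85 and 5.81 in competent and 9.18, 11.3 and 10.8 in arrested, with a log2 difference of competent from control of -0.60 ± 0.21 (limma p 0.0200, adjusted p 0.880).

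The membrane-bound ligand Cx3cl1, which holds Cx3cr1-bearing cells at epithelium and endothelium, was at 15, 18.3 and 23.2 FPKM in control, 22.7, 19.0 and 18.3 in competent and 13.8, 10.3 and 19.4 in arrested. Arrested libraries 1 and 2 were the lowest of the 9. The log2 difference of arrested from competent was -0.48 ± 0.25 (limma p 0.0878, adjusted p 0.529), and it was -0.27 ± 0.23 (adjusted p 0.694) without arrested library 2. Without arrested library 3 it was -0.70 ± 0.22 (limma p 0.0170, adjusted p 0.271). Cx3cr1 was at 1.2 to 2.76 FPKM. Cxcl16, a transmembrane ligand of Cxcr6, was at 15.4, 17.7 and 26.5 FPKM in control, 24.1, 28.6 and 25.7 in competent and 23.1, 24.2 and 38.1 in arrested. Its difference of competent from control was 0.41 ± 0.25 (limma p 0.137, adjusted p 0.954), and with protein-coding transcripts alone, which gave 42.0% of its FPKM, it turned to -0.14 ± 0.36 (adjusted p 1.00).

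Among the other epithelial ligands, groups overlapped in every comparison of all 9 libraries. Cxcl17 was at 409, 407 and 359 FPKM in control, 366, 299 and 303 in competent and 413, 234 and 360 in arrested, with log2 differences from control of -0.28 ± 0.21 and -0.26 ± 0.21 (limma adjusted p 0.954 and 0.914). The arrested difference was -0.33 ± 0.24 (limma adjusted p 0.846) without arrested library 3 and -0.02 ± 0.14 (adjusted p 0.985) without arrested library 2. Cxcl17 was highest in arrested library 1 and lowest in arrested library 2, where the summed FPKM of 6 epithelium markers was also highest (2624) and lowest (1777). Cxcl14, a ligand of skin and mucosal epithelium, had means of 24.4 ± 3.31, 21.8 ± 2.43 and 25.0 ± 17.5 FPKM (SD, n = 3) in control, competent and arrested, with 45.2 in arrested library 3. Ccl25, the gut-homing ligand of Ccr9, ranged from 0 to 7.0 FPKM with the widest spread within groups of the 21 genes (SD of 1.36 on the log2 scale), and Ccr9 was listed at 0 in all libraries. The protein-coding Ccl25 transcript of 1058 bases was listed at 0 in 8 libraries, and its other transcripts with a value at 0 in 4 to 7. Some of these may be failed estimates, so the level and spread of Ccl25 are uncertain. The narrowest spreads were 0.23 for Ccl6 and 0.27 for Cxcl17. Ccl20, the epithelial ligand of Ccr6, was at 1.99 FPKM in arrested library 3 (deposited interval 1.05 to 2.93), at 0.125 in arrested library 2 and listed at 0 in the other 7. Ccl27b was listed only in arrested library 3, at 2.35 FPKM. That library is the one with the oviduct gene Ovgp1, and the part of other tissue was not tested.

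Neutrophil attractants had low values. Among the 38 genes, 5 are ligands with the ELR motif, which act on Cxcr2, and 0 of them passed the filter. These 5, Cxcl5, Cxcl3, Cxcl15, Cxcl1 and Cxcl2, lie together within 147 kb of chromosome 5. The highest mean was 0.850 FPKM for Cxcl15, an epithelial attractant, with 2.74 in control library 3 as its highest value. Cxcl1 and Cxcl2, the acute-phase attractants, reached 0.618 and 0.673 FPKM in control library 1. Cxcl5 reached 1.65 FPKM in arrested library 3. Ccl17 and Ccl22, ligands of Ccr4 made by dendritic cells, and Ccl1, a ligand of Ccr8, had means of 0.482 to 0.677 FPKM.

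Arrested library 3 was the lowest of the 9 for 9 of the 21 tested genes (19% of all genes), namely Ccl2, Ccl5, Ccl7, Ccl8, Ccl11, Ccl12 and the 3 Ccl21 genes, and the highest for Ccl6, Cxcl14 and Cxcl16 (12.2% of all genes). Arrested library 2 was the highest for 5 genes (15% of all genes): the 3 Ccl21 genes, Cxcl12 and Xcl1. Between arrested and competent, 0 of 21 genes had groups that did not overlap (16.5% of all genes). Without arrested library 3, 4 were higher in arrested without overlap (Ccl5, Ccl11, Ccl12 and Xcl1, 17.1% of all genes) and 2 lower (Cx3cl1 and Cxcl14, 13.8%). Without arrested library 2, 0 were higher and 3 lower without overlap (the Ccl21 genes, 16.9% of all genes). The 3 Ccl21 genes are near-identical copies whose separate levels are uncertain, so they are not 3 separate results in these counts.

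**Figure D5:**
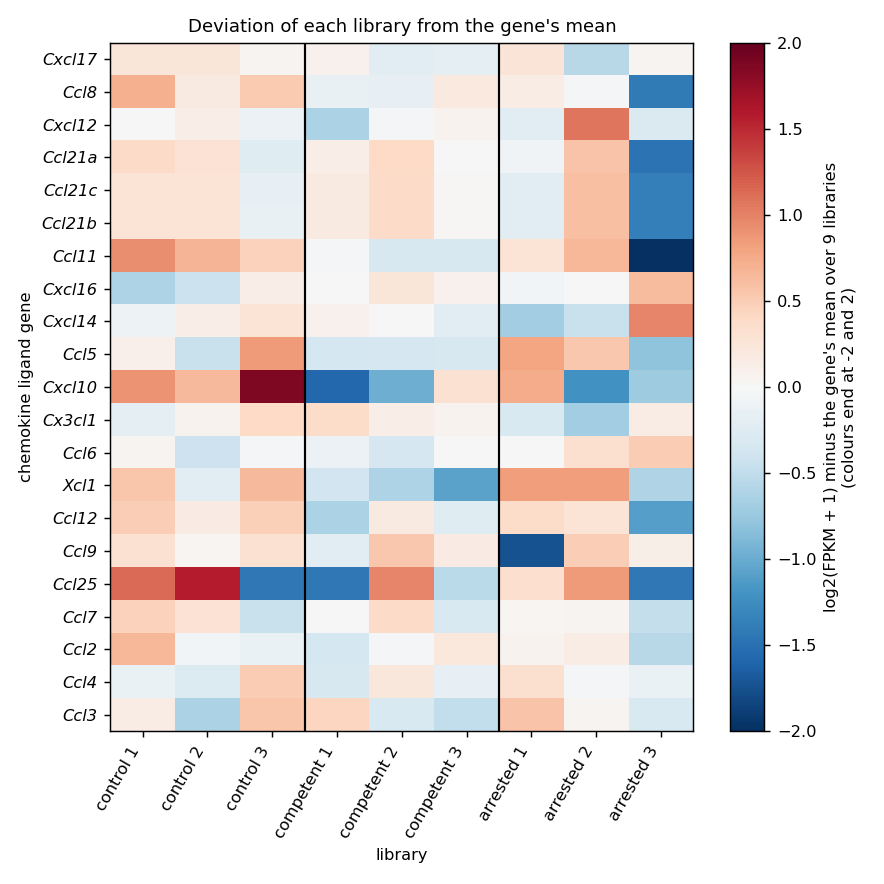
Deviation of each library (columns, groups separated by black lines) from the mean of the gene over 9 libraries, in log2(FPKM + 1), for the 21 tested genes. The column of arrested library 3 is blue for Ccl8, the Ccl21 genes, Ccl11 and Ccl12 and red for Cxcl16, Cxcl14 and Ccl6.

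The genes around the ligands also gave no call. Over all genes tested, 5.18 to 10.9% had an unadjusted limma p under 0.05, depending on the comparison. Of 19 chemokine receptor genes, 5 were tested and 3 were listed at 0 in every library, and 0 of the 5 had even an unadjusted limma p under 0.05. All 5 were lower in competent than in control (51.2% of all genes). Of the 5, 4 were higher in arrested than in competent (48.7% of all genes). Of 5 atypical receptors, which bind chemokines without attracting cells, Cxcr7 and Ccrl2 were tested, and Cxcr7 was also higher in arrested than in competent (0.52 ± 0.21, limma p 0.0367, adjusted p 0.421). Of 22 inducers and regulators of chemokine transcription, 12 were tested and 0 had an unadjusted limma p under 0.05; the smallest F test p-values were those of the NF-kappaB regulators Tnfaip3 and Nfkbia and of Csf1 (limma adjusted p 0.836, 0.837 and 0.856). Of 10 genes that process or present chemokines, 7 were tested. Between arrested and competent, 2 of the 7 had an unadjusted limma p under 0.05 (10.9% of all genes). These were the matrix protease gene Mmp2 (1.00 ± 0.36, limma adjusted p 0.398) and the heparan sulfate carrier gene Sdc4 (0.71 ± 0.22, adjusted p 0.366). Of 3 ligands with other names, Pf4 of platelets and the cytokine Mif were tested, at 5.18 to 21.1 and 204 to 331 FPKM. Of this pair, 0 had an unadjusted limma p under 0.05. The third, Ppbp, was not tested, at 0.211 to 1.33 FPKM.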

How the data were processed

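Uterus RNA of 9 mouse libraries was analysed. Per the submitters' processing notes, the authors used Bowtie 0.12.2, Cufflinks and mm9 (no options stated). The deposited FPKM of transcripts, with their confidence limits in FPKM, and the coverage signal of the deposited files were used as the authors gave them. Of 92846 annotated transcripts, 91490 were in GENCODE vM1 (98.83% at the same coordinates) and were assigned to genes by identifier. FPKM were summed per gene without rescaling (size factors 0.945 to 1.06). Genes that averaged 1 FPKM or more were tested with limma 3.58.1 in R 4.3.3 on log2(FPKM + 1), with group means of all 9 libraries, a mean trend and 8.07 degrees of freedom, and Benjamini-Hochberg adjustment over 13333 genes (threshold 0.05). The pseudocount of 1 understates changes of low genes. The fit was tested on simulated data. Python 3.11.15, pandas 2.3.3 and numpy 2.4.6 made the tables. Members, gene lists, patterns searched and tests were chosen with earlier results of these data known, and the rule for named genes is given in the report; the genes without overlap, and the differences of Ccl12, Ccl21a, Cxcl12 and Cxcl17, were added after their values were seen. Alternatives in pseudocount, filter, transcripts summed, scaling, libraries and replicate block were tried.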

Additional observations from a re-analysis of the deposited data

How the results depend on the processing

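Under every alternative run, 0 chemokine ligand genes passed the threshold in any comparison. Of the named differences recomputed, 238 kept their direction and stayed above the threshold, and 2 reversed: Ccl11 between arrested and competent at 0.70 without arrested library 3 (-0.80 to 0.70 with 1 library left out), and Cxcl16 between competent and control at -0.14 with protein-coding transcripts only, an alternative chosen after seeing the data, as were the counts and further differences without arrested library 2 or 3. Adjusted limma p-values over the alternatives ranged from 0.180 to 0.723 for Xcl1 between arrested and competent, from 0.543 to 1.00 for Cxcl10 and from 0.531 to 1.00 for Xcl1 between competent and control, and from 0.579 to 0.969 for Cxcl10 and 0.6005 to 0.969 for Ccl8 between arrested and control. The Cxcl10 difference of competent from control ranged from -3.29, with its transcript of highest mean FPKM, to -0.87. Of the recomputed levels 79 moved by less than 1 SD and 5 by more: Ccl6 to 10.8 and Cxcl16 to 11.4 FPKM when 1 transcript, that of highest mean, stood for the gene, and Ccl6 to 5.83, Ccl9 to 1.86 and Cxcl16 to 10.4 FPKM with protein-coding transcripts only.

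The counts over all genes moved more. Between arrested and competent, 18 genes were called, against 11 with 1 transcript per gene, 8 with protein-coding transcripts only, 33 with those 2 groups only, 10 without the mean trend and 12 to 43 with 1 library left out (43 without arrested library 2 and 39 without arrested library 3). Between competent and control, 6 were called, against 10 without the filter, 12 with those 2 groups only and 4 to 17 with 1 library left out (11 or more without any of the control libraries, competent library 1 or 3, or arrested library 2). Between arrested and control, 7 were called, against 3 with either choice of transcripts and 7 to 25 with 1 library left out (14 or more without any of the control or arrested libraries). The F test called 13, against 6 and 7 with those choices of transcripts and 15 to 37 with 1 library left out (22 or more without any control or arrested library or competent library 1). Where 1 library was left out its group kept 2. With the replicate block the counts were 4, 1, 5 and 5 in that order. Deviations of same-numbered libraries from their group means correlated at -0.0515 to 0.0958 across genes, and those of differently numbered ones at -0.0936 to 0.0819. No shared shift by number was seen, but this cannot show whether the libraries were paired, which the labels do not state. Why the counts differ was not tested. Depth limits the 7 genes under 10 FPKM and the 14 below the filter, where few reads stand behind a value.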
